A study of Homo sapiens with 6 samples.

Results

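A set of 10 genes of the cellular response to low oxygen were followed in Huh7 cells, a human hepatocellular carcinoma line, with and without knockdown of CTSV, the gene of the lysosomal protease cathepsin V. They are HIF1A and 9 targets of hypoxia-inducible factors (HIF) other than glycolytic enzymes, chosen by name with earlier results of these data known. All 10 were found among the 27394 gene names of the table. Cells with a short hairpin RNA (shRNA) against CTSV gave 3 libraries (genotype labelled CTSV knockdown), and cells with a control shRNA gave 3 (genotype labelled WT). No label names low oxygen or a HIF-stabilising agent for either group. They are called knockdown and control libraries, numbered by replicate. How many clones or hairpins stand behind a group is not stated in the labels, and neither is the origin of replicates in separate cultures, so p-values reflect the spread among these 6 libraries and may hold technical variation only.

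HIF is a transcription factor made of an oxygen-labile alpha subunit (HIF1A, or EPAS1, also called HIF-2 alpha) and a stable partner, ARNT. In oxygenated cells, prolyl hydroxylases of the EGLN family mark the alpha subunit, and the VHL ubiquitin ligase then sends it to the proteasome. HIF1A is thus controlled largely at the protein level, which mRNA counts do not show. When oxygen falls, the stabilised factor binds short elements with the core ACGTG or GCGTG and turns on genes for blood vessel growth, mitophagy, pH control, collagen hydroxylation and the shift away from pyruvate oxidation.

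In CTSV knockdown cells HIF1A and P4HA1 fell and NDRG1 and VEGFA rose, while ADM, BNIP3, EGLN3 and PDK1 did not pass the test. HIF1A was at 295.9 ± 10.6 CPM (counts scaled to a common library size) in knockdown libraries and 423.6 ± 1.91 CPM in control libraries (SD, n = 3 each), and NDRG1 at 49.7 ± 4.49 CPM in knockdown and 27.8 ± 1.67 CPM in control libraries (SD, n = 3 each). CA9 and ANKRD37 had too few counts to be tested. Of the 8 tested members, 2 rose and 2 fell at an adjusted p under 0.05 by edgeR (quasi-likelihood, p-values adjusted over 15968 genes by Benjamini-Hochberg). Across those genes, 40.3% were called, 18.7% as higher and 21.6% as lower, so 4 calls among 8 members is near the background. With offsets for transcript length and GC content 2241 genes were called higher and 4746 lower, against 2982 higher and 3451 lower in the fit reported here. The groups did not overlap in normalised CPM for 5 of the 8 members, BNIP3 added to the 4 called, against 49.2% of all tested genes. The median log2 fold change was -0.17 over the 8 and 0.02 over all tested genes. The 2 members below the filter on low counts are not in these numbers.

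**Figure D1:**
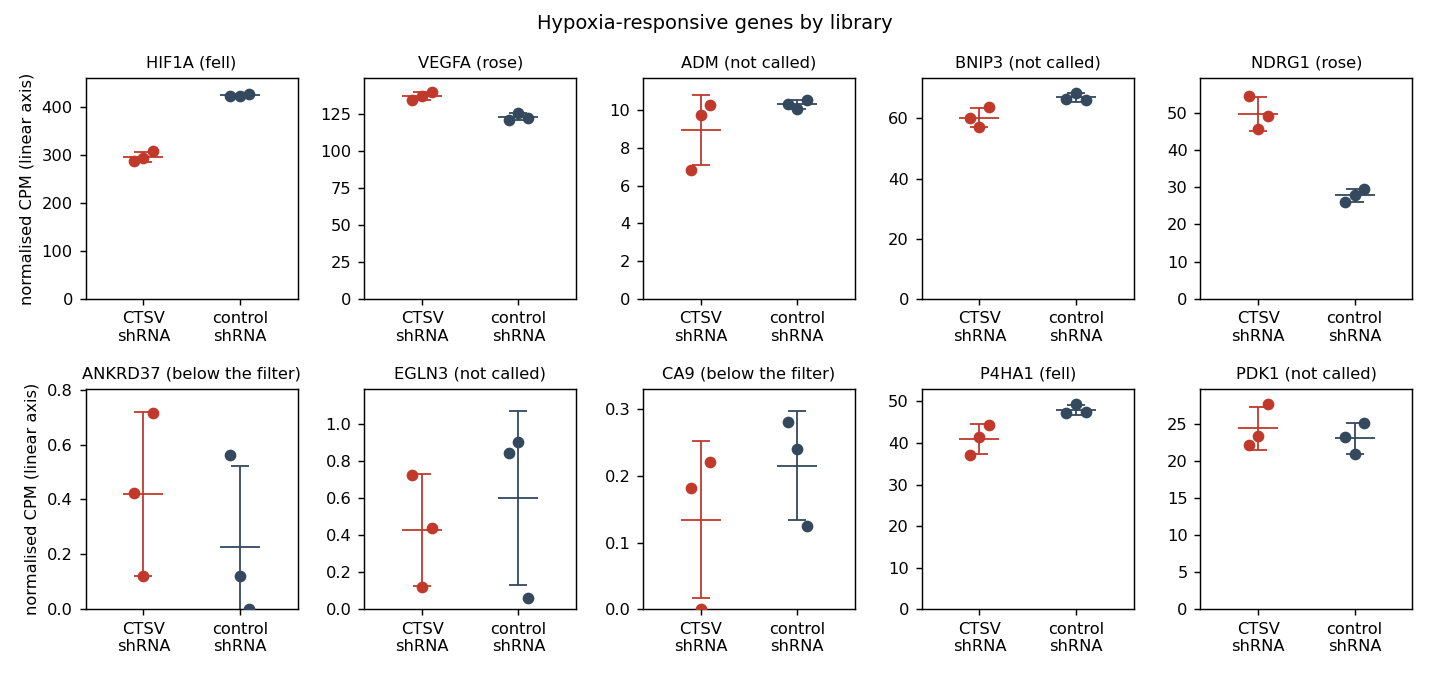
Normalised CPM (y axis, linear) of each of the 10 genes in the 3 CTSV shRNA (knockdown) and the 3 control shRNA libraries; points are libraries, horizontal marks means and bars SD, cut at 0. HIF1A, P4HA1 and BNIP3 lie lower in every CTSV shRNA library, NDRG1 and VEGFA higher, and ANKRD37, EGLN3 and CA9 stay under 1 CPM in every library.

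The 6 libraries held between 16258803 and 18106207 counts, and CTSV itself was lower in every knockdown library, at 16.9 ± 1.31 CPM in knockdown libraries and 42.6 ± 1.79 CPM in control libraries (SD, n = 3 each). Summed over 8 hepatoma markers, the level was 39592 to 40682 CPM in knockdown libraries and 32198 to 33017 CPM in control libraries. Of these markers 6 rose and 1 fell, against 18.7% higher and 21.6% lower among all tested genes. Markers of other cells summed to far less, though LYZ and LUM stood at levels like those of BNIP3 and P4HA1. The 4 of 6 fibroblast and stellate markers in the table summed to 44.01 to 50.02 CPM in knockdown and 37.7 to 43.2 CPM in control libraries. LUM was the 1 called gene of these, at 41.5 ± 3.15 CPM in knockdown and 36.0 ± 1.76 CPM in control libraries (SD, n = 3 each). PECAM1, the only one of 5 endothelial markers in the table, was at 17.3 to 19.2 CPM in knockdown and 16.7 to 21.7 CPM in control libraries. The 3 of 6 immune markers in the table summed to 56.4 to 62.1 CPM in knockdown and 75.2 to 84.2 CPM in control libraries. Nearly all of it was LYZ, which fell, at means of 57.1 CPM in knockdown and 76.3 CPM in control libraries. CD14 was at 2.14 CPM in knockdown and 2.6 CPM in control libraries, and CD3E was near 0. None of the markers in the table was at 0 in all libraries, and the part of these differences in the results below was not tested.

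HIF1A, the oxygen-labile subunit, had by far the highest level per length of the 10 genes and was the clearest fall among them. Counts were 4744, 4838 and 5592 in knockdown libraries, against 7528, 7030 and 6834 in control libraries. Normalised levels were 286.9, 293.1 and 307.6 CPM in knockdown libraries, against 422.0, 423.0 and 425.7 CPM in control libraries. The groups were far apart, and the coefficient of variation was 3.59% in knockdown libraries and 0.451% in control libraries. The log2 fold change was -0.52 (SE 0.0450, 95% interval -0.61 to -0.43, adjusted p = 9.9e-12, edgeR), which is 0.699 of the control level. Its absolute log2 fold change exceeded that of 75.4% of tested genes. In bulk libraries less HIF1A RNA per cell and fewer cells that make it cannot be told apart. HIF1A (ENSG00000100644) spans chr14:61695513-61748259 on the plus strand of hg38 and has 12 annotated transcripts of 2 to 15 exons. It shares 117 exon bases with HIF1A-AS1 on the opposite strand, which had 0 to 4 counts per library, and 148 with AL137129.1 on its own strand, for which no value is used here. The authors' deposited table gives a log2 fold change of 0.53 in the opposite direction of division, control over knockdown.

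The promoter windows of HIF1A, P4HA1, BNIP3 and CA9 are shown because they pair the called falls and the BNIP3 difference with a textbook HIF target that stayed near 0. Each is the 250 bases before the RefSeq start on GRCh38.p14, 5′ to 3′ on the gene's strand, with the HIF core ACGTG or GCGTG, or its reverse complement CACGT or CACGC, in capitals. The windows lie at chr14:61695263-61695512 (plus strand), chr10:73096867-73097116 (minus), chr10:131981924-131982173 (minus) and chr9:35673678-35673927 (plus).
HIF1A: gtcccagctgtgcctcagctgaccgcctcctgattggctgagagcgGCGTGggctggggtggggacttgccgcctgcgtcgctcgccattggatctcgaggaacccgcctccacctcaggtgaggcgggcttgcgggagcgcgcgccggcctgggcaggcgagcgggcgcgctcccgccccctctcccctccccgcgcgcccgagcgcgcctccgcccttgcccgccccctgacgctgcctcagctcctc
P4HA1: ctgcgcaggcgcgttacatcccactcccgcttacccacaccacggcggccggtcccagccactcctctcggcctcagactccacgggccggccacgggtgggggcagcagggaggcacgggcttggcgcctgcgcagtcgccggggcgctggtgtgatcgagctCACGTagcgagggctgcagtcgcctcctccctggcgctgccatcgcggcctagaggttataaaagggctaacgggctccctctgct
BNIP3: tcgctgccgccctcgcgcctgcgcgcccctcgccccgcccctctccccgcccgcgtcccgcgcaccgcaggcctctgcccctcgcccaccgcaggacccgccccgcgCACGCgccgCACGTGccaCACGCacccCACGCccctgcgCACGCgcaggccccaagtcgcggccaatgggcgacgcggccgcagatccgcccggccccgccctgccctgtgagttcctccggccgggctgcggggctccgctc
CA9: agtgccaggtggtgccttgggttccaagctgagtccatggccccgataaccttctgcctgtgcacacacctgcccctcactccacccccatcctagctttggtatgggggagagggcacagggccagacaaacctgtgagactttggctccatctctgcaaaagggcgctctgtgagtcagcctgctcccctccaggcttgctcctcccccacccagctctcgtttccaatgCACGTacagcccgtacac
Windows of 8 of the 10 members were used, 10 windows in all, since HIF1A and PDK1 have 2 starts each. VEGFA had no window at hand, and NDRG1 was left out. ACGTG or GCGTG, on either strand, stood in 7 of the 10 windows, against 43.2% of all 35116 windows of this length. ACGTG stood in 18.5% of all windows and GCGTG in 32.2%. In BNIP3 there were 6 matches, an ACGTG on each strand that overlap as CACGTG and 4 GCGTG on the strand opposite to the gene's. P4HA1 had 1 ACGTG, 86 to 82 bases before the start, CA9 had 1, 18 to 14 bases before it, and HIF1A had 1 GCGTG, 204 to 200 bases before it. The second PDK1 window held 2 ACGTG, ANKRD37 held 3, of which 2 overlap, and ADM held 1 GCGTG, while the EGLN3 window and the other PDK1 and HIF1A windows held neither core. A match is only a match of letters. The windows with matches belong to genes that fell, that were not called and that were hardly counted, and neither member that rose was looked at.

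VEGFA encodes the main growth factor for endothelial cells. Its counts were 2225, 2267 and 2541 in knockdown libraries, against 2164, 2094 and 1965 in control libraries. Its levels were 134.6, 137.4 and 139.8 CPM in knockdown libraries, against 121.3, 126.0 and 122.4 CPM in control libraries. Every knockdown library was higher, by a small amount. VEGFA shares 188 exon bases with AL136131.3 on the opposite strand, for which no value is used here, and strand use in counting is not stated. VEGFA rose by 0.16 on the log2 scale (SE 0.0530, 95% interval 0.05 to 0.26, adjusted p = 0.0178, edgeR), or 11.4%. The call was lost without CTSV shRNA replicate 2 or 3 or control shRNA replicate 1 or 3 (adjusted p = 0.0594, 0.0664, 0.0776 and 0.0613, edgeR) and without a low-count filter (0.0668), and over all its alternatives the adjusted p ran from 0.0124 to 0.755. With offsets for transcript length and GC content the value was -0.02 and was not called. That fit put the median over all tested genes at -0.07, against 0.02 as reported.

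The other genes of this signalling route moved in several directions. The receptor tyrosine kinases FLT1, KDR and FLT4 and the ligand VEGFC had no entry among the gene names used here. With VEGFA, 5 ligands and receptors were tested, of which 2 rose and 1 fell, against 18.7% higher and 21.6% lower among all tested genes. NRP1, a co-receptor for VEGFA, rose by 0.39, at 349.7 ± 3.19 CPM in knockdown libraries and 266.8 ± 3.47 CPM in control libraries (SD, n = 3 each). NRP2, its paralog, fell (-0.54), at 7.21 ± 0.786 CPM in knockdown and 10.5 ± 1.0 CPM in control libraries. The ligand genes VEGFB (-0.27, adjusted p = 0.087) and PGF (0.08, adjusted p = 0.497) did not pass edgeR's test, and over its alternatives VEGFB ran from -0.41 (adjusted p = 0.0152) without control shRNA replicate 1 to -0.11 (adjusted p = 0.573) without control shRNA replicate 2.

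ADM encodes adrenomedullin, a vasodilator peptide, and was measured at about 10 CPM. Counts were 113, 161 and 187 in knockdown libraries, against 184, 167 and 169 in control libraries. Levels were 6.83, 9.76 and 10.3 CPM in knockdown libraries, against 10.3, 10.0 and 10.5 CPM in control libraries. Knockdown library 1 lay well below the other 5, and the groups overlapped. The log2 fold change was -0.20 (95% interval -0.52 to 0.12, adjusted p = 0.338, edgeR). It was -0.04 without knockdown library 1 (adjusted p = 0.882) and -0.31 without knockdown library 3 (adjusted p = 0.187), both by edgeR. Among the 5 tested genes of its ligand and receptor list, ADM included, 2 rose and 1 fell. Of all tested genes, 18.7% were called higher and 21.6% lower. The related peptide gene ADM2 fell (-0.92), at 8.9 ± 1.6 CPM in knockdown libraries and 16.9 ± 0.745 CPM in control libraries (SD, n = 3 each). CALCRL, a receptor subunit for adrenomedullin that works with an accessory protein, rose by 1.0. It was at low levels of 3.89 ± 0.504 CPM in knockdown and 1.95 ± 0.602 CPM in control libraries. RAMP1, an accessory protein that shapes that receptor's ligand choice, rose by 0.84, at 11.5 ± 1.44 CPM in knockdown and 6.44 ± 0.818 CPM in control libraries. RAMP2 was at 1.69 ± 0.772 CPM in knockdown and 1.33 ± 0.587 CPM in control libraries and was not called (0.34, adjusted p = 0.566, edgeR). RAMP3 had no entry among the gene names used here.

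BNIP3 encodes a mitochondrial outer membrane protein that recruits the autophagy machinery. Its counts were 993, 943 and 1159 in knockdown libraries, against 1185, 1140 and 1060 in control libraries. Its levels were 60.1, 57.1 and 63.8 CPM in knockdown libraries, against 66.4, 68.6 and 66.0 CPM in control libraries. Each knockdown library was lower than each control, by little, and the log2 fold change of -0.15 (95% interval -0.29 to -0.01) did not pass adjustment over all genes (adjusted p = 0.0733, edgeR). It passed with offsets for length and GC content (-0.20, adjusted p = 0.0094) and with all deposited entries kept (-0.18, adjusted p = 0.0242), both by edgeR. The median over all tested genes was -0.07 with these offsets, against 0.02 in the fit reported here. With all entries kept, HIF1A (-0.55) and NDRG1 (0.81) were also lower than as reported. For BNIP3 the adjusted p was highest without CTSV shRNA replicate 2 (0.256, edgeR). Its paralog BNIP3L, which acts in the same process, had the opposite sign, at 75.0 ± 2.6 CPM in knockdown and 67.3 ± 2.95 CPM in control libraries (SD, n = 3 each), with a log2 fold change of 0.16 and an adjusted p of 0.0507 (edgeR). BNIP3L passed at a mean CPM of at least 1 (adjusted p = 0.0377), with the replicate block (0.0468) and without control shRNA replicate 3 (0.0447), and the range over its other leave-one-out fits lay above 0.05.

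NDRG1, a cytoplasmic protein named for its regulation by the MYCN factor and induced by hypoxia and other stresses, was the member that rose most. Counts were 900, 751 and 893 in knockdown libraries, against 465, 463 and 472 in control libraries. Levels were 54.4, 45.5 and 49.1 CPM in knockdown libraries, against 26.1, 27.9 and 29.4 CPM in control libraries. The lowest knockdown library stood well above the highest control. The log2 fold change was 0.84 (SE 0.0872, 95% interval 0.66 to 1.02, adjusted p = 6.7e-10, edgeR), or 1.79-fold, larger in absolute size than for 89.7% of tested genes. NDRG1 (ENSG00000104419) spans chr8:133237171-133302022 on the minus strand of hg38, with 29 annotated transcripts of 2 to 16 exons, and no annotated gene overlaps it. Of its 3 relatives, NDRG3 fell (-0.61), at 38.1 ± 3.49 CPM in knockdown and 58.1 ± 5.21 CPM in control libraries (SD, n = 3 each), and NDRG2 (0.13, adjusted p = 0.472) and NDRG4 (-0.25, adjusted p = 0.308) were not called by edgeR.

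P4HA1 encodes the catalytic subunit of the collagen prolyl 4-hydroxylase of the endoplasmic reticulum. Counts were 615, 682 and 805 in knockdown libraries, against 844, 820 and 760 in control libraries. Levels were 37.2, 41.3 and 44.3 CPM in knockdown libraries, against 47.3, 49.3 and 47.3 CPM in control libraries. All knockdown libraries were below all controls, library 3 closest to them. P4HA1 shares 47 exon bases with AL731563.2 on the opposite strand, for which no value is used here. P4HA1 fell, with a log2 fold change of -0.23 (SE 0.0803, 95% interval -0.39 to -0.07, adjusted p = 0.0213, edgeR). The call was lost without CTSV shRNA replicate 1 (-0.17, adjusted p = 0.144) or control shRNA replicate 2 (-0.21, adjusted p = 0.0579), and the adjusted p over its alternatives ran from 0.00057 to 0.144. P4HB, the partner subunit that is also protein disulfide isomerase, fell too (-0.22), at 355.7 ± 9.92 CPM in knockdown and 415.6 ± 14.0 CPM in control libraries (SD, n = 3 each). The isoform gene P4HA2 was at 26.0 ± 3.69 CPM in knockdown and 22.5 ± 0.64 CPM in control libraries and was not called (0.21, adjusted p = 0.118, edgeR), and P4HA3 had 2 to 7 counts in knockdown libraries and 4 to 7 in control libraries.

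PDK1 encodes a pyruvate dehydrogenase kinase, which holds pyruvate back from mitochondrial oxidation. Counts were 366, 384 and 502 in knockdown libraries, against 414, 347 and 402 in control libraries. Levels were 22.1, 23.3 and 27.6 CPM in knockdown libraries, against 23.2, 20.9 and 25.0 CPM in control libraries. The groups overlapped, with knockdown library 3 the highest of all 6, and the log2 fold change of 0.08 (95% interval -0.14 to 0.30) was not called (adjusted p = 0.581, edgeR). PDK1 shares 445 exon bases with the antisense gene AC078883.1, which had 34 to 43 counts in knockdown libraries and 12 to 38 in control libraries. Strand use in counting is not stated, so reads of such pairs cannot be told apart. The kinase genes PDK3 (0.32, adjusted p = 0.289) and PDK4 (0.46, adjusted p = 0.178) were also not called by edgeR, both under 6 CPM in the mean of each group. PDK2, another kinase of the family, had 15, 31 and 9 counts in knockdown libraries, against 5, 2 and 3 in control libraries, and was below the filter on low counts. The groups did not overlap, and without the filter its log2 fold change was 2.41 (adjusted p = 0.0042, edgeR).

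EGLN3, CA9 and ANKRD37, often used as markers of the hypoxic response, were near 0 in both groups. EGLN3 encodes a prolyl hydroxylase that HIF itself induces. It had 12, 2 and 8 counts in knockdown libraries, against 15, 15 and 1 in control libraries. It just passed the filter, and its log2 fold change of -0.49 had a 95% interval of -1.89 to 0.90 (adjusted p = 0.601, edgeR). CA9, a membrane carbonic anhydrase that acidifies the cell surroundings, had 3, 0 and 4 counts in knockdown libraries, against 5, 4 and 2 in control libraries. A count of 0 in 16280506 allows up to 0.184 CPM, the level of 3 counts, and a difference in CA9 was not detectable at this depth. ANKRD37, an ankyrin repeat protein, had 7, 2 and 13 counts in knockdown libraries, against 10, 2 and 0 in control libraries, and the 0 allows up to 0.185 CPM. These limits cover counting error only. CA9 shares 643 exon bases with ARHGEF39 and ANKRD37 shares 909 with UFSP2, in both cases on the opposite strand, and reads of such pairs cannot be told apart without strand. CA9's relatives were well measured. CA2 fell (-1.06), at 24.2 ± 0.309 CPM in knockdown and 50.3 ± 3.79 CPM in control libraries, and CA12, also a HIF target, fell (-0.56), at 26.2 ± 2.13 CPM in knockdown and 38.6 ± 0.453 CPM in control libraries (SD, n = 3 each).

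**Figure D2:**
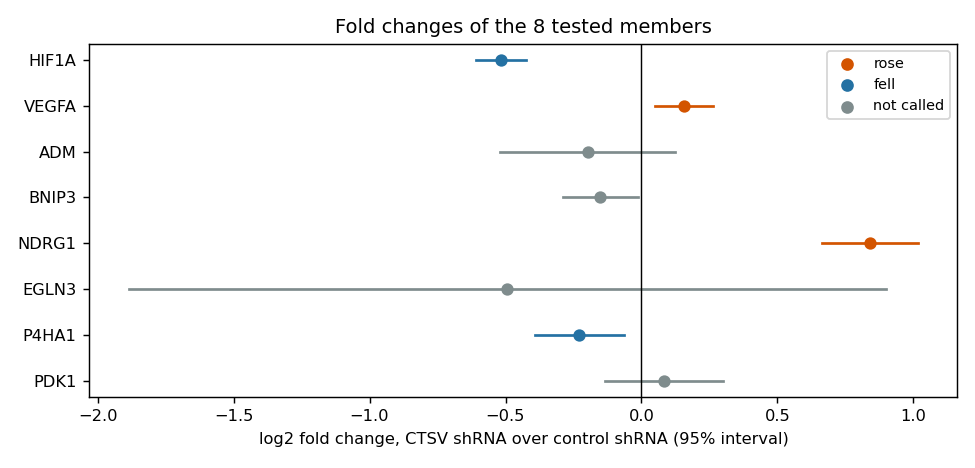
Log2 fold changes, CTSV shRNA over control shRNA (x axis), of the 8 tested members with 95% intervals from edgeR; colours give the call. HIF1A (-0.52) and NDRG1 (0.84) lie far from 0, VEGFA (0.16) and P4HA1 (-0.23) close to it, and the EGLN3 interval runs from -1.89 to 0.90.

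Per length of annotated exon, the members spanned a wide range of levels. In CPM per kilobase of merged exon, HIF1A was at 57.4 ± 2.06 in knockdown libraries and 82.2 ± 0.371 in control libraries (SD, n = 3 each). P4HA1 followed at 13.2 in knockdown and 15.5 in control libraries, BNIP3 at 11.3 in knockdown and 12.6 in control libraries, and VEGFA at 9.51 in knockdown and 8.54 in control libraries. Between neighbours in this order the libraries of a group did not overlap, the closest being P4HA1, lowest at 12.03, and BNIP3, highest at 11.97, in knockdown libraries. NDRG1 and ADM changed places. NDRG1 was at 5.06 and ADM at 3.30 CPM per kilobase in knockdown libraries, and they were at 2.83 and 3.79 in control libraries. PDK1 was at 1.64 in knockdown and 1.55 in control libraries, and ANKRD37, EGLN3 and CA9 stayed below 0.3 in every library and overlapped each other. The lengths count the exons of all annotated transcripts (14431 bases for VEGFA), more than any single mRNA holds, so these levels are lower than per transcript.

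Within the knockdown group, library 3 was the highest for 6 of the 8 tested members and the lowest for 0, and knockdown library 1 was the lowest for 5. Over all tested genes, library 3 was highest of the group for 33.8% and library 1 lowest for 34.7%. NDRG1 and EGLN3 were the exceptions, both highest in library 1. In the control group the highest library was 2 for 4 members and 3 for the other 4. Likeness to 77 tested pathway genes that are not members was measured on mean-centred log2 CPM over the 6 libraries. Nearest to HIF1A was ENO1 (root mean square difference 0.0429) and nearest to P4HA1 was VHL (0.0400). Nearest to VEGFA was BNIP3L (0.0410) and nearest to NDRG1 was ZNF395 (0.151). The difference between the groups was left in, so this likeness largely restates the fold changes.

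The genes that build and restrain HIF fell more often than they rose. Their list, like those of the targets below, was drawn up with earlier results of these data known. Of 14 tested HIF subunits and oxygen-sensing regulators other than members, 7 fell, 2 rose and 5 were not called, against 21.6% lower and 18.7% higher among all tested genes, and their median log2 fold change was -0.15. EPAS1, the other alpha subunit of hepatocytes, fell (-0.42), at 222.2 ± 2.65 CPM in knockdown and 297.9 ± 3.13 CPM in control libraries (SD, n = 3 each), as HIF1A did, while their partner ARNT was at 62.3 ± 5.18 CPM in knockdown and 57.0 ± 3.19 CPM in control libraries and was not called (0.13, adjusted p = 0.159, edgeR). Of the 4 hydroxylase genes, EGLN3 included, 0 passed in edgeR and 0 in DESeq2, and 0 had an unadjusted p under 0.05. EGLN1, the main HIF prolyl hydroxylase, had a log2 fold change of -0.10 (adjusted p = 0.242), EGLN2 -0.10 (0.651) and the asparaginyl hydroxylase gene HIF1AN -0.03 (0.714) in edgeR's test. With length and GC offsets EGLN1 (-0.21, adjusted p = 0.0057) and HIF1AN (-0.20, adjusted p = 0.0021) passed in edgeR. That fit put the median over all tested genes at -0.07. All 5 subunits of the VHL ubiquitin ligase fell, the substrate receptor VHL (-0.28), the scaffold CUL2 (-0.18), the RING subunit RBX1 (-0.28) and the adaptors ELOB (-0.38) and ELOC (-0.46). VHL was at 131.2 ± 7.83 CPM in knockdown and 159.3 ± 7.32 CPM in control libraries and ELOC at 35.0 ± 2.3 CPM in knockdown and 48.3 ± 6.02 CPM in control libraries. The call of RBX1 was lost without CTSV shRNA replicate 3 or control shRNA replicate 2 (adjusted p = 0.163 and 0.139, edgeR). These 5 were grouped after their values were seen, and RBX1, ELOB and ELOC also serve other ligases. SIAH2, a ligase for the EGLN hydroxylases, fell most (-0.80), at 13.9 ± 0.894 CPM in knockdown and 24.3 ± 1.9 CPM in control libraries, and SIAH1 was not called (-0.12, adjusted p = 0.548, edgeR). OS9, an endoplasmic reticulum lectin also reported to bind HIF1A, rose by 0.21. CITED2, a HIF-induced competitor for a HIF coactivator, rose by 0.20, a call lost without control shRNA replicate 1 or 3 (adjusted p = 0.0615 and 0.0875, edgeR).

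**Figure D3:**
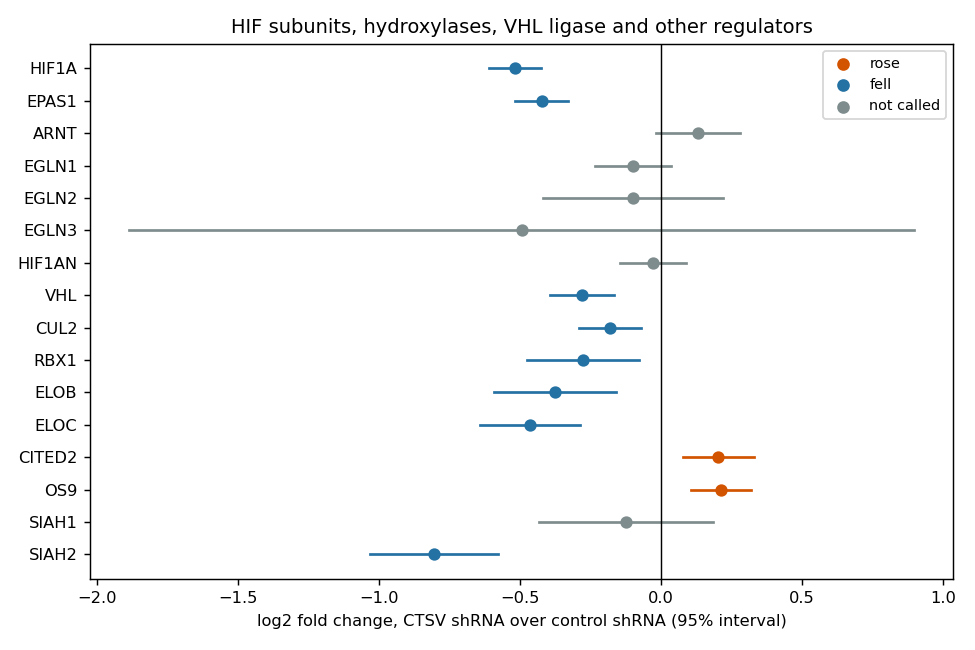
Log2 fold changes, CTSV shRNA over control shRNA (x axis), with 95% intervals from edgeR, of HIF subunits, hydroxylases, VHL ligase subunits and other regulators; colours give the call. HIF1A, EPAS1 and the 5 ligase subunits lie left of 0, and the intervals of the EGLN genes and HIF1AN cross it.

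Among other HIF targets more fell than rose. Among 32 tested targets outside the list of glycolytic enzymes, 13 fell, 5 rose and 14 were not called, with a median of -0.19, against 21.6% lower and 18.7% higher among all tested genes. The clock-linked repressor gene BHLHE40 (-0.91) and the mTORC1 inhibitor gene DDIT4 (-1.52) fell, DDIT4 at only 3.1 ± 1.07 CPM in knockdown and 8.95 ± 1.96 CPM in control libraries. PPP1R3C, a glycogen-targeting subunit of protein phosphatase 1, rose by 1.11, at 14.7 ± 0.935 CPM in knockdown and 6.8 ± 0.611 CPM in control libraries. Of 16 tested glycolytic targets 12 fell and 0 rose, with a median of -0.50. No member of that list was higher at an unadjusted p under 0.05 (0) or in DESeq2 (0). The 4 with the smallest adjusted p were GAPDH (-0.62), PKM (-0.54), ENO1 (-0.54) and HK2 (-0.62). Over the whole list the values ran from -1.21 to 0.12, and a link to HIF1A was not tested.

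**Figure D4:**
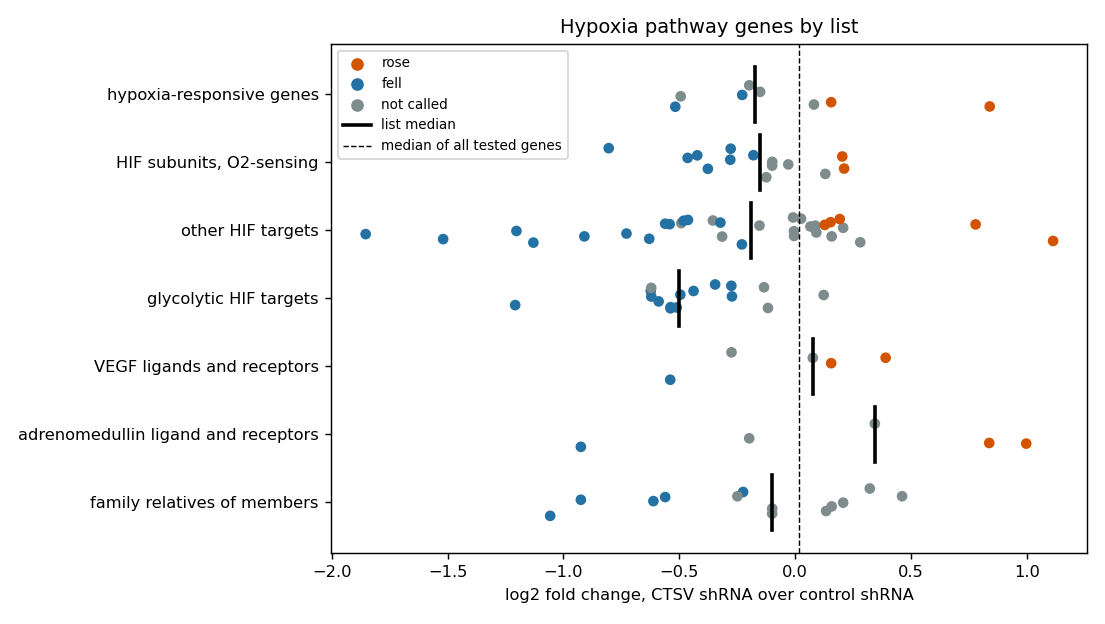
Log2 fold changes, CTSV shRNA over control shRNA (x axis), of tested genes in 7 lists; points are genes coloured by call, thick marks the list medians and the dashed line the median of all tested genes (0.02). The members run from -0.52 to 0.84 around a median of -0.17, and the glycolytic targets hold no gene called higher.

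**Figure D5:**
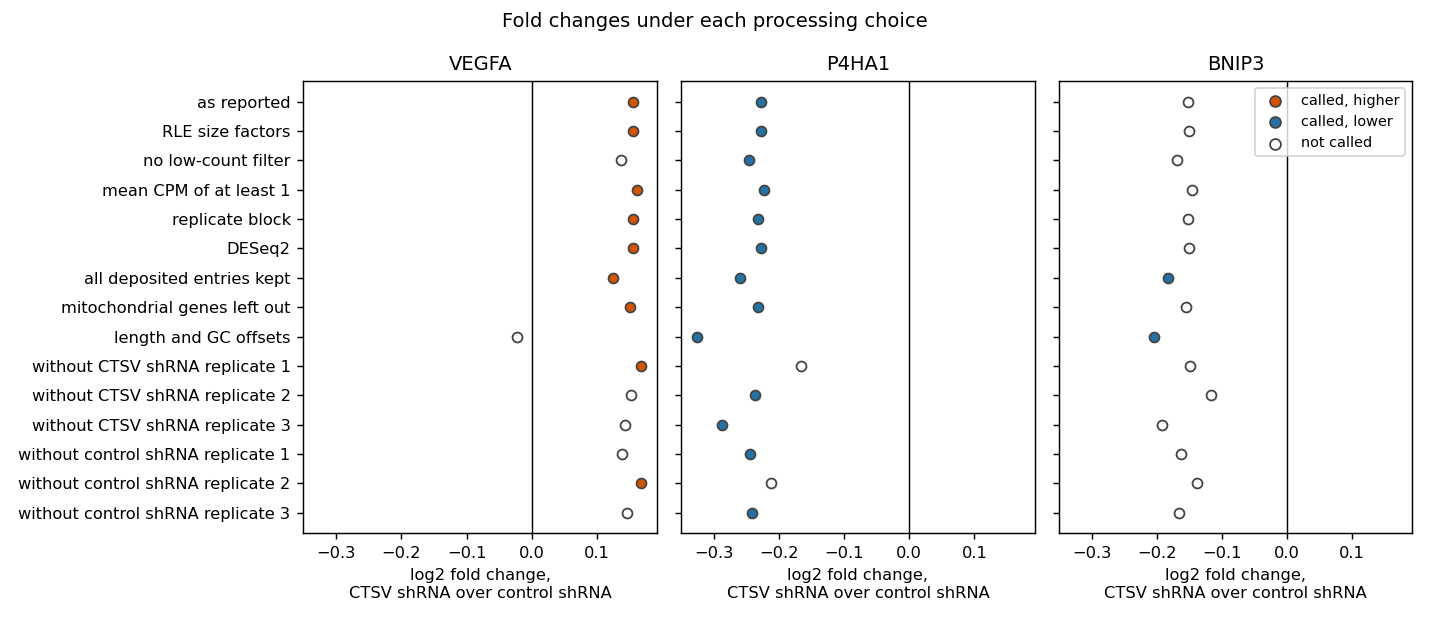
Log2 fold changes, CTSV shRNA over control shRNA (x axis), of VEGFA, P4HA1 and BNIP3 as reported and under 14 alternatives (rows); filled points passed an adjusted p of 0.05. VEGFA passed in 8 alternatives and P4HA1 in 12, BNIP3 in 2, and VEGFA crosses 0 with length and GC offsets.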

How the data were processed

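RNA-seq counts of 6 Huh7 libraries were used, made per the labels' protocols with TRIzol and an NEBNext Ultra II mRNA kit. Per the submitters' processing notes the authors used HISAT2, StringTie and SAMtools with hg38, with the counting tool, annotation and strand use not stated. The deposited counts are raw whole numbers. The authors' deposited log2 fold changes (control over knockdown) and p-values come from a test that no source used here names. One entry per gene name was kept, removing 1521 repeats of 28915 entries. edgeR 4.0.16 (R 4.3.3) fitted all names with TMM, filterByExpr and its quasi-likelihood test, with Benjamini-Hochberg adjustment and a call at an adjusted p under 0.05; SE is the log2 fold change over the root of F. The test was run on simulated data with far fewer changed genes than were called here, so that run cannot show how it behaves at this share. CPM use TMM-scaled totals. Exon lengths and overlaps came from GENCODE 29, and promoters from RefSeq (GRCh38.p14). Members, lists and alternatives were chosen with earlier results of these data known. All 10 members are named, as are called pathway genes of smallest adjusted p (4 per list of targets) and the relatives of the members. A target that this rule names is not reported here. Alternatives were RLE, other filters, DESeq2 1.42.0, a replicate block, all entries, no mitochondrial genes, loess offsets (span 0.5) for length and GC content, and each library left out. Pseudocounts entered only the likeness measure (log2 CPM with a prior count of 2).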

Additional observations from a re-analysis of the deposited data

How the results depend on the processing

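HIF1A was lower and NDRG1 higher in all 14 alternatives run, called each time, with log2 fold changes of -0.63 to -0.50 for HIF1A and 0.77 to 0.90 for NDRG1. Over the 7 or 8 tested members with a value in each alternative, 101 of 111 fold changes kept their direction and side of the threshold or stayed uncalled. VEGFA reversed with length and GC offsets (-0.0218), and the cause was not tested. Members called higher numbered 1 without a low-count filter and 1 with length and GC offsets, where the VEGF list also had 1. Of 13 tested relatives of the members, 5 fell and 0 rose as reported, against 21.6% lower and 18.7% higher among all tested genes. Relatives called higher were 1 without a low-count filter (PDK2), 1 at a mean CPM of at least 1 and 1 with the replicate block. Other HIF targets called higher were 3 with all deposited entries kept and 2 with length and GC offsets. Leaving out each library gave 1 to 2 members called higher and 1 to 2 lower, 1 to 2 regulators, 2 to 6 other targets, 1 to 2 VEGF list genes and 0 to 2 relatives called higher, and 1 to 2 VEGF list genes lower. Of all genes, 2445 to 2720 were then higher and 3041 to 3202 lower, and 2241 higher and 4746 lower with length and GC offsets, against 2982 higher and 3451 lower as reported. ANKRD37 (0.83, adjusted p = 0.607, edgeR) and CA9 (-0.67, adjusted p = 0.785) had values only without the filter. Same-numbered libraries did not deviate together (correlations -0.01, -0.00253 and 0.02 across genes), and the replicate block changed no member's call. Whether the samples were handled in pairs is not stated in the labels, and these correlations cannot show it. Depth limits EGLN3, ANKRD37 and CA9.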
